A study of Bos taurus with 27 samples.

Results

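The insulin-like growth factor (IGF) system of the bovine blastocyst was described by 10 genes, and all 10 were found by symbol among the 32637 genes counted. They encode 2 receptors (IGF1R, INSR), 2 adaptors that the receptors phosphorylate (IRS1, IRS2), 3 secreted binding proteins (IGFBP2, IGFBP3, IGFBP7) and 3 cytoplasmic proteins that bind IGF2 and other mRNAs (IGF2BP1, IGF2BP2, IGF2BP3). A gene was retained when it reached at least 1 CPM, the count of the gene per 1000000 counts of the pool, in 12 pools, which left 12310 genes and 9 of the 10 members. IRS2 was the member that did not pass, with 1 CPM or more in 6 of 27 pools.

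The libraries were 27 pools of bovine blastocysts produced in vitro, with 2 expanding or expanded embryos of quality score 1 to a pool. The oocytes had been matured with preovulatory follicular fluid that came from follicles of either greater or lesser maturity, and were fertilized with semen of a single bull and cultured alike. Which follicular fluid, and which fertilization replicate, each pool belonged to was not assigned here, so every value below is over all 27 pools and no treatments are compared. Total counts per pool ran from 10517606 to 44253564 with a median of 22293594, so 1 CPM stood for 10.5 to 44.3 counts. A level of 3 counts, used here as a floor, stood for 0.0678 to 0.285 CPM.

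Insulin and the IGFs bind receptor tyrosine kinases at the cell surface, and the activated receptors recruit IRS adaptors that start the phosphatidylinositol kinase and RAS cascades. Binding proteins hold IGFs outside the cell and are released from them by proteases, while IGF2R removes IGF2 by endocytosis. In the bovine embryo, IGF1 reaches the blastocyst mainly from the reproductive tract and is known as an embryotrophic factor in culture, whereas the IGF2BP family acts inside the cell on the transport, stability and translation of mRNAs.

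The mRNA-binding proteins made up most of the transcripts of the system. The 3 IGF2BP genes held a median of 89.4% of the summed CPM of the 10 members, with a lowest share of 80.7% in pool 12 and a highest of 93.6% in pool 35. The 10 members summed to a median of 329 CPM, from 241 CPM in pool 9 to 414 CPM in pool 46. Reads came from the 3′ end of mRNAs, so these are counts of transcript ends on the CPM scale and not divided by length, and a 3′ end outside the annotated gene would go uncounted.

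**Figure D1:**
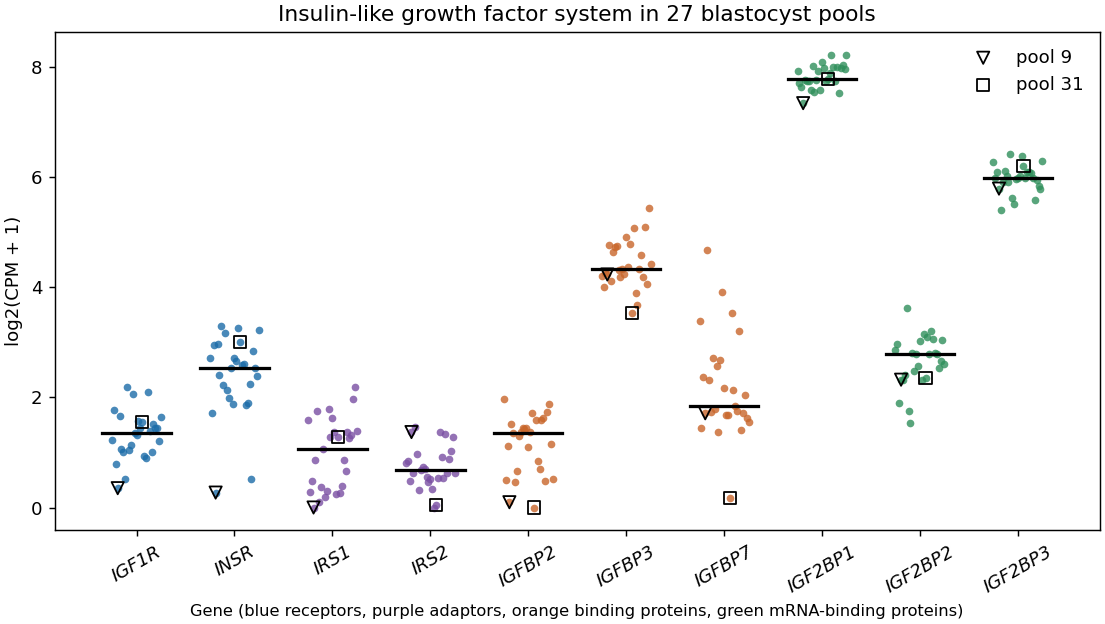
Each point is the level of a gene in 1 of 27 blastocyst pools, on the log2(CPM + 1) scale of the vertical axis, and each black line is the median over pools. The genes stand by role on the horizontal axis, a triangle marks pool 9 and a square marks pool 31. The points of IGF2BP1 lie above all those of IGF2BP3, while those of IGF1R, IRS1, IRS2 and IGFBP2 overlap near the bottom.

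IGF1R, the receptor that binds IGF1 and IGF2, lies on chromosome 21 (ARS-UCD2.0, 7780293 to 8087168). Its level was 0.275 CPM in the lowest pool, a median of 1.54 CPM, and 3.57 CPM in the highest, pool 19. It was at 1 CPM or more in 22 of 27 pools, and pool 35 (3.27 CPM) stood beside the highest. Among the retained genes it was at the 9.13 percentile of median CPM. The interquartile range of its log2(CPM + 1), 0.527, was near the median of 0.524 over retained genes. Adding 1 narrows this range for genes near 1 CPM, and in CPM the upper quartile of IGF1R was 1.87 times the lower quartile.

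INSR, the insulin receptor, on chromosome 7 (16054185 to 16200493), was higher than IGF1R in 23 of 27 pools. Its level was 0.207 CPM at the lowest, 4.77 CPM at the median and 8.76 CPM at the highest, in pool 14. A pair of low pools stood apart, with 3 counts in pool 9 (0.207 CPM, 95% interval 0.0426 to 0.604) and 9 counts in pool 41 (0.438 CPM, 95% interval 0.2002 to 0.831), and the next lowest was pool 5 at 2.30 CPM. These are exact Poisson intervals and cover counting error only, since reads are not independent molecules.

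The ratio of INSR to IGF1R was 3.28 at the median. It was lowest in pool 41 (0.237) and in pool 9 (0.750), and highest in pool 6 (9.15). Both receptors were at their lowest in pool 9, where IGF1R had 4 counts. In pool 41, IGF1R was at 1.85 CPM, above its median, so the low INSR of that pool was not shared by the other receptor.

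IRS1, an adaptor for both receptors, on chromosome 2 (114928433 to 114992724), varied widely between pools. It was at 0 counts in pool 9, where the exact Poisson 95% interval reached 0.254 CPM. Its median was 1.08 CPM and its highest level 3.53 CPM, in pool 45, with pool 44 next at 2.92 CPM. It held 3 counts or fewer in 4 pools and reached 1 CPM in 14. The upper quartile was 6.08 times the lower quartile, and its interquartile range stood at the 91.4 percentile of the retained genes.

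IRS2, the related adaptor on chromosome 12 (84625081 to 84655639), was at 0 counts in pool 28, a median of 0.611 CPM and a highest level of 1.75 CPM in pool 13. IRS1 was the higher of the pair in 18 of 27 pools. In pool 9, where IRS1 had no count, IRS2 was at 1.58 CPM, one of its highest levels. IRS4, the other adaptor of the family that was counted, had no count in 24 pools.

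Among the binding proteins IGFBP3, the main carrier of IGFs in the circulation, was the most abundant. It lies on chromosome 4 (76116379 to 76124833) and was at 10.5 CPM in pool 31, 19.0 CPM at the median and 42.5 CPM in pool 45. Every pool had at least 186 counts. Pool 45 was above the second highest, pool 42, at 33.2 CPM.

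IGFBP2, a binding protein with higher affinity for IGF2 than for IGF1, lies on chromosome 2 (104619962 to 104648632). It had no count in pool 31, where the exact Poisson 95% interval reached 0.120 CPM, and 1 count in pool 9. Its median was 1.55 CPM and its highest level 2.90 CPM, in pool 1. It reached 1 CPM in 18 of 27 pools.

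IGFBP7, a low-affinity IGF-binding protein of the extracellular matrix, on chromosome 6 (72405517 to 72485427), was the member with the largest share of its counts in a single pool. The level was 0.130 CPM in pool 31, 2.58 CPM at the median and 24.5 CPM in pool 12, and the next highest were pool 24 at 14.0 CPM, pool 32 at 10.5 CPM and pool 1 at 9.45 CPM. Pool 12 alone gave 19.1% of the summed CPM of the gene over 27 pools, where an equal share is 3.70% and the median over retained genes for their highest pool is 6.47%. At the low end, pool 31 had 4 counts, and the next lowest, pool 22, was at 1.59 CPM.

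The biological coefficient of variation, the spread between pools beyond counting error that edgeR estimates with a single mean for all pools, was 79.4% for IGFBP7. The value fitted for genes of the same abundance was 56.5%. For IRS1 it was 90.8% against 76.9%, for INSR 59.1% against 56.1%, and the other 6 retained members were below the value for their abundance. Over all retained genes 28.5% were above it, and since treatment and replicate were not assigned, this spread holds any difference between them.

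IGF2BP1, which binds the leader of IGF2 mRNA and shields several mRNAs from decay, was the most abundant member and varied little between pools. It lies on chromosome 19 (37497068 to 37544059). Its level was 161 CPM in pool 9, 219 CPM at the median and 296 CPM in pool 46, a highest level 1.84 times the lowest. Its coefficient of variation was 15.4% where genes of its abundance had 22.7%, and its interquartile range was at the 8.80 percentile of retained genes while its median CPM was at the 92.8 percentile.

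IGF2BP3, on chromosome 4 (31943616 to 32088163), is a paralog of IGF2BP1 expressed mostly before birth. It was at 41.4 CPM in pool 12, 62.5 CPM at the median and 84.6 CPM in pool 21, and its highest level was 2.04 times the lowest. Its coefficient of variation, 20.4% against 26.9% for its abundance, was above that of IGF2BP1, while its interquartile range, at the 4.70 percentile, was the smaller of the pair.

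IGF2BP2, the paralog best known from adult metabolism, on chromosome 1 (81402074 to 81573565), was far lower. It was at 1.88 CPM in pool 19, 5.88 CPM at the median and 11.3 CPM in pool 14. Its coefficient of variation was 38.5%, against 53.3% for its abundance. How the counting treated reads shared by these 3 paralogs was not examined here.

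Of the summed CPM of the 3 IGF2BP genes, IGF2BP1 held a median of 77.3%, from 67.1% in pool 21 to 82.6% in pool 12. IGF2BP3 held 20.3% at the median, from 15.4% to 30.7%, and IGF2BP2 1.85%, from 0.590% to 3.86%. IGF2BP1 exceeded IGF2BP3 in 27 of 27 pools, by 2.18 times in pool 21, 3.82 times at the median and 5.38 times in pool 23. The order of these 3 genes was thus the same in every pool on the CPM scale.

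By median CPM the members ran from IGF2BP1 through IGF2BP3, IGFBP3, IGF2BP2, INSR, IGFBP7, IGFBP2, IGF1R and IRS1 to IRS2. Each of the first 3 was higher than the next in 27 of 27 pools, and IGF2BP1 and IGF2BP3 had ranges that did not overlap. IGF2BP2 was above INSR in 17 of 27 pools and INSR above IGFBP7 in 17 of 27, so the order of these neighbours changed between pools. IGFBP2 (1.546 CPM) and IGF1R (1.542 CPM) had nearly the same median, and IGFBP2 was the higher in 13 of 27 pools.

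**Figure D2:**
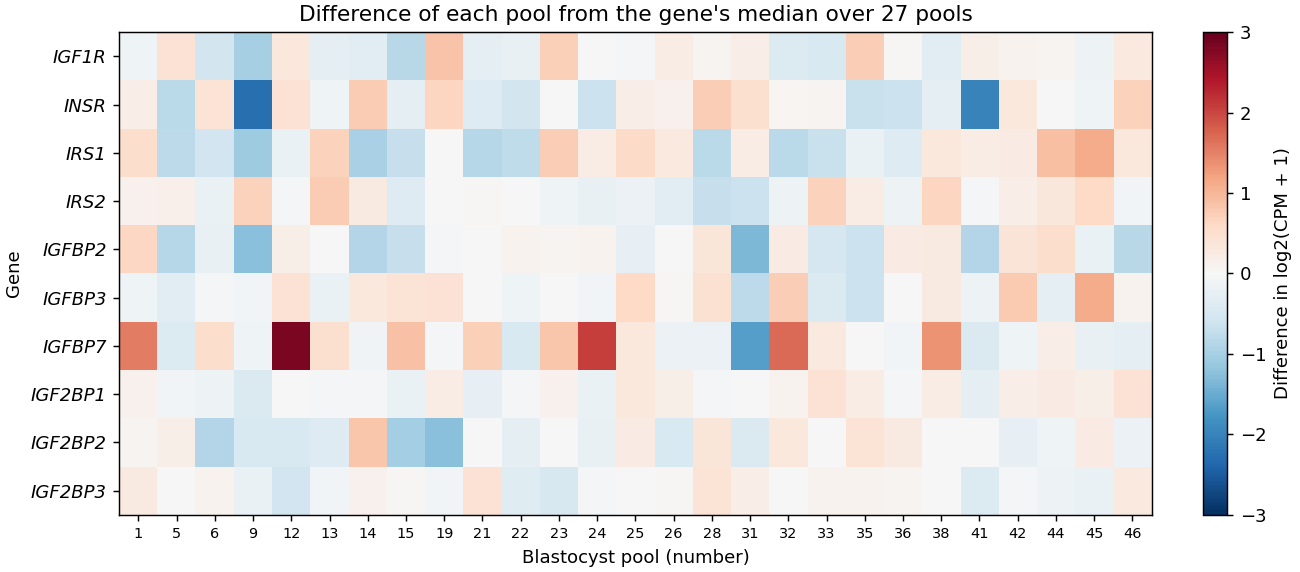
The colour of each cell is the difference between a pool (horizontal axis, by number) and the median of the gene over 27 pools, in log2(CPM + 1), with higher pools in red and lower pools in blue. INSR is dark blue in pools 9 and 41, IGFBP7 runs from dark blue in pool 31 to dark red in pool 12, and the rows of IGF2BP1 and IGF2BP3 are pale.

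Low values of several members fell in the same pools, which were singled out after their values were seen. Pool 9 held the lowest value of 4 of the 10 members, IGF1R, INSR, IRS1 and IGF2BP1, and was below the median in 9 of 10, with IRS2 the exception. In the background 11.6% of the retained genes had their lowest CPM in pool 9. This pool also had the lowest trophectoderm marker score, -1.54, and the lowest hypoblast marker score, -1.83, of all pools, as well as the highest sum of 7 leukocyte markers, 78.3 CPM against a median of 25.5 CPM, and their part in the low values was not tested.

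Pool 31 held the lowest value of all 3 member binding proteins. It had 0 counts of IGFBP2, 0.130 CPM of IGFBP7 and 10.5 CPM of IGFBP3, while its INSR (7.04 CPM) and IGF2BP3 (72.4 CPM) were above their medians. In the background 17.9% of the retained genes had their lowest CPM in pool 31, which had the fewest genes with a count (15491). Its trophectoderm score was high (0.869), its epiblast (-1.02) and oocyte (-1.03) scores were low, POU5F1 was at its lowest there, at 109 CPM, and their part in the low values was not tested. IGFBP4, a binding protein outside the 10 members, was at its highest in that pool, at 17.7 CPM.

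Insulin and the IGFs themselves had few or no counts in the blastocyst libraries. INS had no count in any of 27 pools, IGF1 had 16 counts in all with none in 22 pools, and IGF2 had 37 counts with none in 16 pools. Their highest levels were 0.373 CPM for IGF1 and 0.4902 CPM for IGF2, and 26 and 23 pools, respectively, were at or under 3 counts. IGF2R, the receptor that clears IGF2, was counted in every pool, at 2.07 CPM in pool 9, 13.5 CPM at the median and 23.7 CPM in pool 33, and it exceeded IGF1R in every pool, by 8.89 times at the median.

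Of 74 other genes of the pathway in 11 lists, 55 were retained and 44 were at 1 CPM or more in all 27 pools. Over all genes counted, 12310 of 32637 were retained. Among 6 other binding proteins 3 were retained, IGFBP4 with a median of 7.90 CPM, IGFBP5 with 4.47 CPM and IGFBP6 with 4.44 CPM, while IGFBP1 had no count in 21 pools. Of 6 proteases of the binding proteins and their inhibitors, 2 were retained, and ADAM9, a membrane metalloprotease, was the highest at a median of 43.6 CPM. PAPPA, which cleaves IGFBP4, did not reach 1 CPM in any pool.

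Inside the cell, every list of the pathway had retained genes. Of 8 other adaptors 4 were retained, led by GRB2, which links receptors to RAS, at a median of 117 CPM. All 11 genes of the phosphatidylinositol kinase and AKT arm and all 8 of the mTOR arm were retained, led by PIK3CB, a catalytic kinase subunit, at 150 CPM and by RHEB, the GTPase that activates mTOR, at 202 CPM.

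The other arms were retained to a similar degree. There were 9 of 10 retained in the RAS and MAPK arm, where NRAS led at 152 CPM, and 4 of 5 in the forkhead and GSK3 arm, where GSK3B led at 34.5 CPM. All 4 receptor phosphatases were retained, with PTPN11, a phosphatase that acts in RAS signalling, the highest at 111 CPM. All 4 genes of glucose transport and insulin breakdown were retained, and SLC2A3, a high-affinity glucose transporter, was the highest at 1504 CPM.

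Of 7 RNAs listed here as partners of the IGF2BP proteins, 5 were retained. ACTB, the actin mRNA whose transport depends on IGF2BP1, was the highest at a median of 14819 CPM. H19, the imprinted RNA beside IGF2, had 17 counts in all and none in 18 pools.

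**Figure D3:**
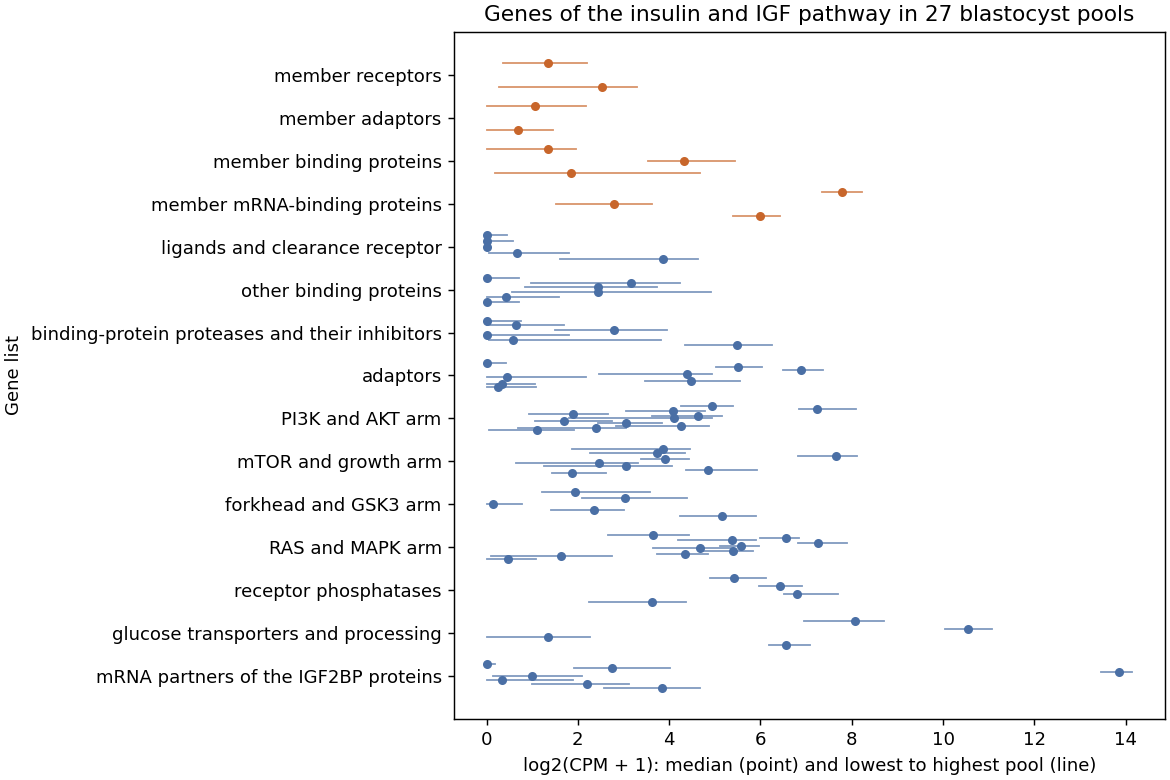
Each point is the median of a gene over 27 pools and each line runs from its lowest to its highest pool, in log2(CPM + 1) on the horizontal axis, with genes grouped by list on the vertical axis. Orange marks the 10 members and blue the other 74 genes of the pathway. The ligands INS, IGF1 and IGF2 lie at 0, and IGF2BP1 is the highest of the members.

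Relations between genes across pools were measured by Spearman's rho of CPM over 27 pools, tested with 100000 permutations of the pools, two-sided, and adjusted by Benjamini-Hochberg over the 123055 relations of the 10 members with all retained genes and with each other. Of these relations 0 (0%) passed an adjusted p of 0.05. The smallest adjusted p was 0.0684, which is the value that the smallest p of this number of permutations, 1e-05, took after adjustment. A relation at that p could therefore not pass here, however strong it was. With a t approximation of the Spearman p, 57 relations passed. Without adjustment, 12696 relations, 10.3% of all, reached a p of 0.05 or less, 8035 of them positive and 4661 negative.

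Of the 45 pairs of members, 0 passed the adjusted threshold and 4 had an unadjusted p of 0.05 or less, or 8.89%, near the background of 10.3%. All 4 were positive, as were most of the relations over all retained genes. The pair with the largest rho was IRS1 with IGF2BP1, at 0.572 (permutation p = 0.00255, adjusted p = 0.233). Pearson's r of their log2(CPM + 1) was 0.481 (permutation p = 0.0114) and 0.391 without pools 9 and 45, the farthest from the median of IRS1.

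IGFBP2 and IGFBP7, both lowest in pool 31, had a rho of 0.454 (permutation p = 0.0188, adjusted p = 0.370) and an r of 0.523 (permutation p = 0.00460) that was 0.402 without pools 9 and 31. INSR had a rho of 0.415 with IGFBP3 (permutation p = 0.0327, adjusted p = 0.431), with an r of 0.280 (permutation p = 0.157) and 0.286 without pools 41 and 9. With IGF2BP1 its rho was 0.413 (permutation p = 0.0330, adjusted p = 0.433), and the r of 0.576 (permutation p = 0.00146) fell to 0.295 without pools 41 and 9, so it rested in large part on those pools. IGF1R and INSR, the pair of receptors, had a rho of 0.16, and IRS1 and IRS2 one of 0.09.

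**Figure D4:**
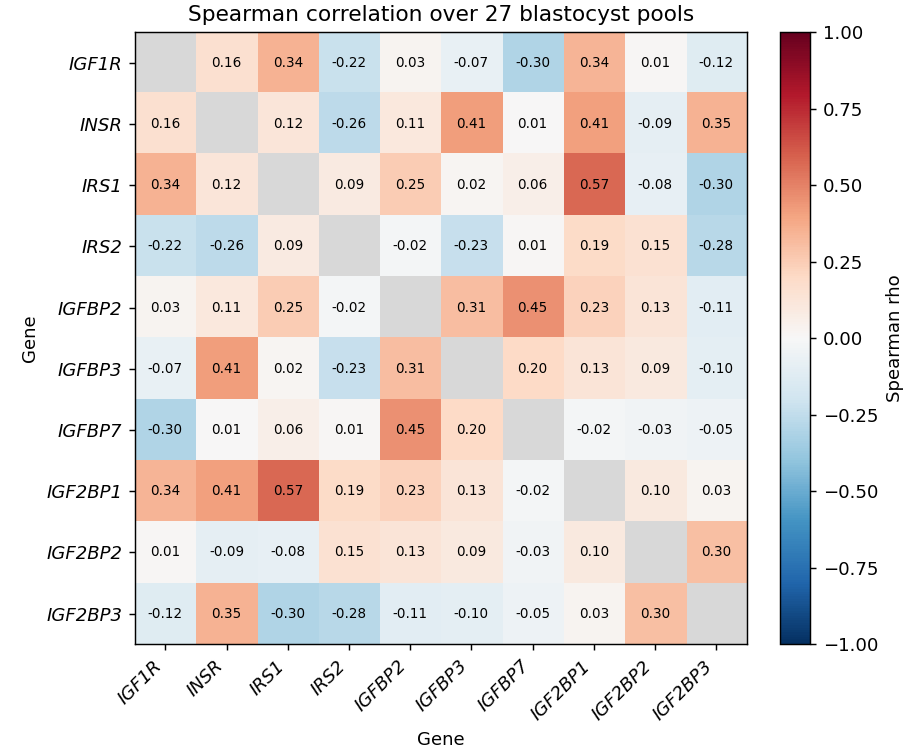
Each cell gives Spearman's rho of the CPM of a pair of members over 27 pools, with both axes listing the 10 genes, red for positive and blue for negative values and grey for a gene with itself. The darkest cell is IRS1 with IGF2BP1 at 0.57, and no pair passed an adjusted p of 0.05.

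With the 55 retained genes of the pathway the members gave 550 relations, of which 0 passed the adjusted threshold and 62 (11.3%) had an unadjusted p of 0.05 or less, 47 positive and 15 negative. IGF2BP1 had the most, with 17 of 55 (30.9%), of which 14 were positive. Over all retained genes its share at that unadjusted threshold was 15.6%. IRS2 had 8 of 55 (14.5%) beside 15.8% over all retained genes, and whether these shares differ was not tested.

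The genes whose pattern was most like that of each member, by the highest rho, are given as a description, since none passed the adjusted threshold. Those at the smallest permutation p could not have passed it. For the receptors these were PC (0.744), the pyruvate carboxylase gene, and RNH1 (0.737) with INSR, and CILK1 (0.691) and ZNF331 (0.657) with IGF1R. For the adaptors they were CHMP7 (0.769) and FOXN3 (0.753) with IRS1, and LOC101905265 (0.834) and TNFRSF9 (0.774) with IRS2. The lowest rho were with SEPSECS for IGF1R (-0.706), SNHG3 for INSR (-0.758), LIN7C for IRS1 (-0.772) and ATP5MC3, a subunit of the mitochondrial ATP synthase, for IRS2 (-0.828).

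Among the binding proteins, IGFBP2 was most like TIAM2 (0.771) and PSMC4 (0.706), IGFBP3 most like PRDM14 (0.681), a regulator of pluripotency, and CLGN (0.665), and IGFBP7 most like BBS5 (0.703) and ZER1 (0.694). The lowest rho were with LOC100335268 (-0.706), CMBL (-0.781) and FTL (-0.665), the ferritin light chain gene, respectively. For IGF2BP1 the highest were PLEKHG3 (0.793) and SSRP1 (0.776), a histone chaperone subunit, for IGF2BP2 they were ZNF12 (0.816) and ADAR (0.720), an RNA-editing enzyme, and for IGF2BP3 they were EZR (0.794), which encodes the ezrin of microvilli, and PLA2G15 (0.750). The lowest were VPS29 (-0.733), CLEC10A (-0.617) and PAG1 (-0.814). PAG1 ranged from 0.548 to 10.4 CPM and EZR from 2453 to 5071 CPM.

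The pools were also described by 5 measures, the total count and scores for trophectoderm, epiblast, hypoblast and oocyte markers, each score being the mean over retained markers of the standardized log2(CPM + 1). All 8 trophectoderm markers were retained, as were 4 of 5 epiblast and 3 of 6 hypoblast markers, with SOX17 and FOXA2 below 1 CPM in every pool. Trophectoderm markers were led by KRT8 at a median of 18607 CPM and epiblast markers by POU5F1 at 399 CPM. Medians of the other retained epiblast markers were 51.6 CPM for NANOG, 9.47 CPM for GDF3 and 6.86 CPM for SOX2. Of 7 cumulus and granulosa markers 3 were retained, FSHR with a median of 8.89 CPM, TNFAIP6 with 2.38 CPM and CYP19A1 with 0.971 CPM. The 7 markers summed to between 3.16 and 33.1 CPM, LHCGR had no count in 18 pools, and their part in the results was not tested.

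Of all relations of a gene with a measure, 190 of 61533 (0.309%) passed an adjusted p of 0.05, adjusted over all of them, and 9.96% reached 0.05 without adjustment. The 190 relations became 91 without pool 9, 65 without pool 31 and 0 without both, where 5577 had an unadjusted p of 0.05 or less and the smallest adjusted p, 0.0559, was the smallest permutation p after adjustment. Other pools were not left out in this way. Of the 50 relations of a member, 0 passed the adjusted threshold and 8, or 16%, the unadjusted one. A relation with a marker score cannot tell fewer cells of a type from less RNA per cell in these bulk pools.

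INSR had the largest rho of the members with the score for trophectoderm, the outer layer that will form the placenta, where 1.15% of all retained genes passed the adjusted threshold and 21.2% the unadjusted one. Of the 10 members 0 passed the first and 3 the second. Its rho was 0.636 (permutation p = 0.00047, adjusted p = 0.0868) and its r 0.622 (permutation p = 0.00058). Without pools 14 and 9, at the ends of the score and also of INSR, r was 0.405. IGF2BP3 had a rho of 0.596 (permutation p = 0.00144, adjusted p = 0.135) and an r of 0.559 (permutation p = 0.00279) that was 0.581 without the same pools, and its rho alone passed the adjusted threshold when DESeq2 size factors were used, at 0.679 with an adjusted p of 0.0467.

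IGF2BP1 had a smaller rho of 0.436 with the trophectoderm score (permutation p = 0.0232, adjusted p = 0.400), with an r of 0.442 (permutation p = 0.0204) and 0.373 without pools 14 and 9. IGF2BP3 was negatively related to the epiblast score, with a rho of -0.437 (permutation p = 0.0229, adjusted p = 0.398) and an r of -0.475 (permutation p = 0.0120) that was -0.294 without pools 28 and 21. The rho was -0.335 (permutation p = 0.0881) with TMM effective library sizes and -0.352 (permutation p = 0.077) without pool 31. Without pool 9 it was -0.501 (permutation p = 0.01). The hypoblast score had a rho of 0.515 with IGFBP2 (permutation p = 0.00659, adjusted p = 0.259), and the r of 0.588 (permutation p = 0.00100) was 0.407 without pools 41 and 9. None of these passed the adjusted threshold. With the epiblast score 1 of the 10 members had an unadjusted p of 0.05 or less, beside 8.52% of all retained genes. With the hypoblast score 3 of the 10 did, beside 9.55%, and whether these shares differ was not tested.

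The hypoblast score also had a rho of 0.427 with IRS1 (permutation p = 0.0269, adjusted p = 0.415) and of 0.405 with IGF2BP2 (permutation p = 0.0374, adjusted p = 0.456), with r of 0.392 (permutation p = 0.04) and 0.259 (permutation p = 0.192), or 0.388 and 0.299 without pools 41 and 9. With INSR its rho was 0.243 (permutation p = 0.219). The r of INSR with this score was 0.668 (permutation p = 0.00075), above its r with the trophectoderm score. It was 0.174 without pools 41 and 9, where INSR was lowest. For the total count 1 of the 10 members had an unadjusted p of 0.05 or less, beside 3.40% of all retained genes. This was IGF2BP2, with a rho of -0.421 (permutation p = 0.0288, adjusted p = 0.422), an r of -0.300 (permutation p = 0.127), and -0.292 without pools 23 and 28. Within-replicate values could not be given, because the fertilization replicate of the pools was not assigned.

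**Figure D5:**
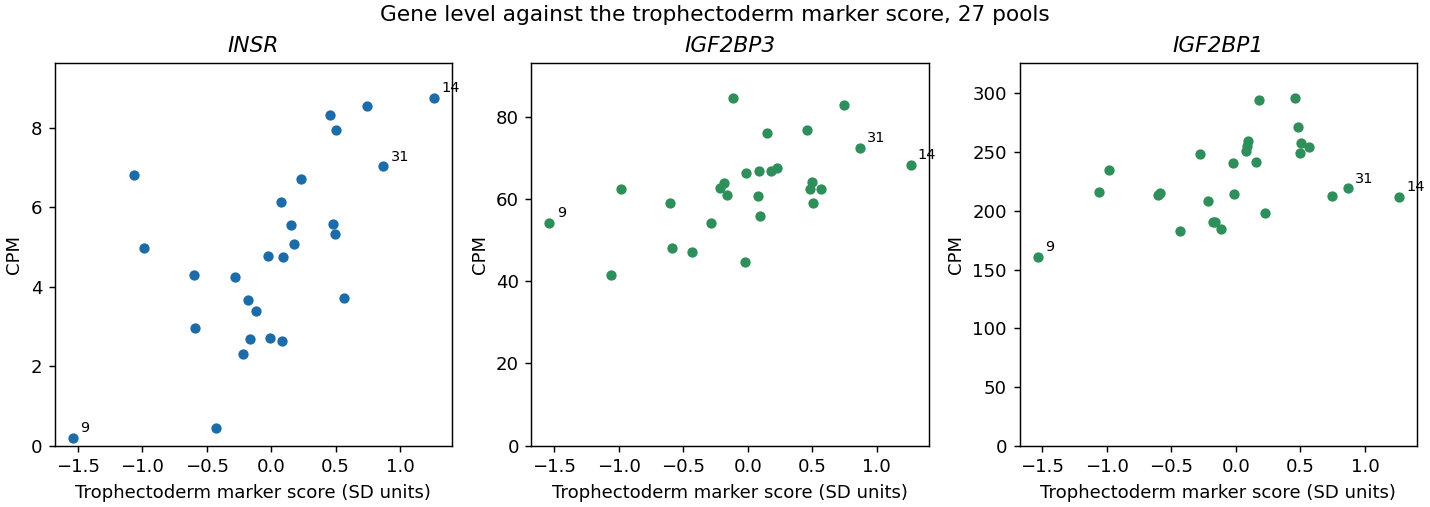
Each point is 1 of 27 pools, with its trophectoderm marker score in standard deviation units on the horizontal axis and the CPM of INSR, IGF2BP3 or IGF2BP1 on the vertical axis, and pools 9, 14 and 31 are numbered. Pool 9 has the lowest score and the lowest INSR, and pool 14 the highest of both, while IGF2BP1 spans 161 to 296 CPM.

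Of the 55 other pathway genes with the 5 measures, 2 of 275 relations passed the adjusted threshold, both with the trophectoderm score. This was 0.727%, beside 0.309% over all retained genes and measures, and neither passed without both pools 9 and 31. ACTB had a rho of 0.885 (permutation p = 1e-05, the smallest these permutations can give, adjusted p = 0.0176) and an r of 0.888 (permutation p = 1e-05), or 0.842 without pools 14 and 9. Without pools 9 and 31 its rho was 0.868, with an adjusted p of 0.0559 at the smallest permutation p. PTPN2, a phosphatase that acts on INSR and other tyrosine kinases, had a rho of -0.713 (permutation p = 7e-05, adjusted p = 0.0385) and an r of -0.712 (permutation p = 3e-05), or -0.783 without pools 14 and 9. Its level ran from 61.7 CPM in pool 31 to 119 CPM in pool 9, and its call was lost without pool 9 (rho -0.672, adjusted p = 0.0832), without pool 31 (rho -0.690, adjusted p = 0.0721) and without both (rho -0.63, adjusted p = 0.181).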

How the data were processed

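The data were raw read counts per gene, deposited by the authors for 27 pools of 2 bovine blastocysts. A 3′-end kit was used by the authors for cDNA, and only forward reads were used. Trimming was by fastp, mapping by STAR (ARS-UCD2.0) and counting by featureCounts. The submitters' processing notes also name FastQC and SAMtools, and tool versions are not given in the sources used here. All 27 columns were matched to pools by number. Pools were given no treatment or replicate, so no groups were compared. The permutations treated all pools as exchangeable, so the p-values do not allow for pools that shared a treatment or replicate and may be too small. No pair of libraries agreed within sampling noise (lowest chi-square per degree of freedom 23.9 of 351 pairs).

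CPM was the count divided by the column total. Retention required 1 CPM in 12 pools, as in the study's methods. Marker scores used a pseudocount of 1. Spearman's rho was tested as described, and BCV was estimated by edgeR with an intercept alone. The members, gene lists and tests were chosen with earlier results of these data known. Named genes were the 10 members, the 2 genes with the highest and the 1 with the lowest rho for each, IGF1, IGF2, INS and IGF2R, and the gene of highest median in each list. Others were named after their values were seen. The calculations were tested on simulated data. Gene positions came from RefSeq (ARS-UCD2.0). Depth limits are given with the values. Alternatives covered filter, normalization (TMM, DESeq2 size factors), pseudocount, correlation, p-value and pools 9 and 31. Python 3.11.15 (numpy 2.4.6, pandas 2.3.3, scipy 1.17.1, matplotlib 3.10.9) and R 4.3.3 (edgeR 4.0.16, DESeq2 1.42.0) were used.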

Additional observations from a re-analysis of the deposited data

How the results depend on the processing

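With at least 1 CPM required in all 27 pools, 4 members were retained in place of 9. No pair of members passed the adjusted threshold under any alternative tried, and 3 to 6 pairs had an unadjusted p of 0.05 or less. With DESeq2 size factors 1 member relation with a pool measure passed, that of IGF2BP3 with the trophectoderm score. The other 107 of 108 alternatives for single correlations and all 50 for medians kept their direction and side of the threshold or moved by less than the spread between pools. This was easily met, because none of the 12 correlations passed to begin with and the spread between pools is wide for a median. Some of the 107 lost an unadjusted p of 0.05 and others kept it. IGFBP2 with the hypoblast score lost it without pools 9 and 31 (rho 0.332, permutation p = 0.104). Medians moved by -12.1% to 19.9%, the latter without pools 9 and 31. Relations of any retained gene with a measure that passed numbered 190, and 471 with Pearson's r, 458 with a pseudocount of 0.1, 85 with no filter, 91 without pool 9, 65 without pool 31 and 0 without both. Relations of members with retained genes that passed numbered 0, but 174 with Pearson's r and a pseudocount of 0.1, and 57 with a t approximation of the Spearman p, which has no smallest value as the permutations do. The relations without pool 31, with pools 9 and 31 left out, with the t approximation, and with DESeq2 size factors or Pearson's r and a pseudocount of 0.1 for pool measures, were chosen after seeing the data, as were the medians without pool 31. Levels per kb of transcript were not run, since transcript lengths were not used here. No paired analysis was possible because the labels give the pools no treatment or replicate. Members near 1 CPM rest on few counts in shallow pools, which limits the precision of single values.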
